A study of Mus musculus with 29 samples.

Results

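Blood vessels in muscle are wrapped by mural cells, which comprise vascular smooth muscle cells and pericytes, and 8 of their genes are described here. Acta2, Myh11, Tagln, Cnn1, Myl9 and Lmod1 encode proteins of the smooth muscle contractile apparatus, and Rgs5 and Cspg4 are expressed by pericytes. The genes were chosen by symbol, with no threshold on a measured value, and all 8 were among the 22537 gene symbols of the count table.

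Male C57BL/6 mice gave the tibialis anterior (TA), a muscle of the lower hindlimb, whose polyadenylated RNA was sequenced as a whole from 22 animals, with 7 mice at 6 months of age (6m), 7 at 24 months (24m) and 8 at 28 months (28m). Of the 29 libraries, those of the 24m mice were sequenced in a first run beside the 6m mice, and those of the 28m mice in a second run beside a new library of each mouse at 6m. The labels name no genetic change and no treatment in any group, and all mice had been tested for physical function before the muscle was taken. Group sizes follow the labels of the samples, since the numbers for 24m and 28m are exchanged in the design text of the series. The RNA is that of the whole muscle, so that fewer mural cells and less of a transcript in each mural cell cannot be told apart.

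Smooth muscle cells surround arteries, arterioles and veins and set their diameter, and pericytes lie within the basement membrane of capillaries. Both contract when myosin light chain kinase phosphorylates the regulatory light chain of myosin, and both are recruited to growing vessels by endothelial cells that secrete PDGF-B, the ligand of the receptor Pdgfrb. Transcription of many contractile genes is driven by serum response factor, which binds DNA sequences named CArG boxes together with its coactivator myocardin.

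RefSeq promoter windows of GRCm38.p6, from 250 bases before to 50 bases after the annotated start, were found for Acta2, Myl9, Cnn1, Lmod1, Rgs5 and Cspg4. The windows were searched for the CArG box, a palindrome that reads alike on both strands, with all 6 inner bases A or T or with 1 of them changed. A perfect box was in 1.63% of 32851 windows of the annotation and a box with at most 1 changed inner base in 9.98%. Myl9 held a perfect box at position -161 and a box with 1 changed base at -99, counted from the start, and Acta2 held a box with 1 changed base at each of -84 and -34. No box was found in the windows of Cnn1, Lmod1, Rgs5 or Cspg4. The windows of the actin, of the myosin light chain and of Rgs5, the member that fell most at 28m, are shown 5′ to 3′ on the strand of the gene, with the boxes in capitals. They span chr19:34255324-34255623 on the minus strand, chr2:156775214-156775513 on the plus strand and chr1:169655251-169655550 on the plus strand.
Acta2: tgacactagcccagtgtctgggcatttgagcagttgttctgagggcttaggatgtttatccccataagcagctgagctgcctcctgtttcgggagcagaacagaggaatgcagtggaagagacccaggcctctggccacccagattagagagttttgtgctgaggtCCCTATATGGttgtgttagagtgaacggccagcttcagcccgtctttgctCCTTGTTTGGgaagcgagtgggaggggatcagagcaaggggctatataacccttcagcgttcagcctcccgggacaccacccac
Myl9: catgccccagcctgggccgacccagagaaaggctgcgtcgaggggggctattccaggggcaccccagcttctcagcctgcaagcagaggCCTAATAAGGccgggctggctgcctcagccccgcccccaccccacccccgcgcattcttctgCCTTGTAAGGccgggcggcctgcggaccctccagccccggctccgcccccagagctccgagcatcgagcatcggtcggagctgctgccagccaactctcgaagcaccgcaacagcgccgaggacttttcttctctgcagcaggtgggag
Rgs5: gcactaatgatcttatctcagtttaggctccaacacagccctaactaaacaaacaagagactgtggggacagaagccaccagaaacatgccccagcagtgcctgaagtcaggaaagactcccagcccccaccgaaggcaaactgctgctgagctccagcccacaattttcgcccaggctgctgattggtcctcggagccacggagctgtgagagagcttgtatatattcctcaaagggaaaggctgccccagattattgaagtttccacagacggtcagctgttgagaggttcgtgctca
A match of these letters describes the window and does not show that a factor binds there.

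All 8 transcripts were measured in each library. The library totals ran from 17633475 to 33499162 counts, and the least abundant member, Cnn1, had 14 to 75 counts, whereas Rgs5 had 390 to 4392. Counts normalized to the library total (CPM, scaled by TMM factors) were divided by the merged exonic length of a gene in kilobases to compare levels between genes. In 6m libraries from the second run, the level per kilobase was highest for Rgs5 (31.5 ± 2.48 CPM per kb, SD, n = 7), followed by Myl9 (28.0 ± 3.80) and Acta2 (24.8 ± 3.39). Neighbors among these 3 genes differed by less than the sum of their SDs. The order went on with Tagln (15.7 ± 2.03 CPM per kb), Myh11 (7.47 ± 0.805), Lmod1 (2.06 ± 0.309), Cspg4 (1.19 ± 0.267) and Cnn1 (0.541 ± 0.0821), and from Acta2 on each neighbor differed by more than that sum. At 28m, Rgs5 (13.6 ± 9.10 CPM per kb, SD, n = 8) came after Myl9 (39.3 ± 13.3), Acta2 (29.8 ± 9.52) and Tagln (24.0 ± 8.14), although none of the neighbors among these 4 genes differed by more than the sum of their SDs. Myh11 (4.60 ± 1.56), Lmod1 (2.26 ± 0.559), Cspg4 (0.790 ± 0.175) and Cnn1 (0.637 ± 0.249) followed, and neither Rgs5 and Myh11 nor Cspg4 and Cnn1 were separated by their spread.

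Libraries differed in how abundance depended on gene length, and this difference moved with several members. For each library the slope of log2 CPM, taken as the deviation from the mean of all 6m libraries, on log2 exonic length was computed across genes outside the lists used here. A negative slope means that long genes had fewer counts, relative to short genes, than in the average 6m library. The slope was under -0.2 in 7 libraries, namely replicate 4 of the first-run 6m group (-0.29), replicate 4 of the 24m group (-0.51) and replicates 1, 2, 3, 5 and 7 of the 28m group (-0.23, -0.28, -0.43, -0.36 and -0.46). All other libraries lay between -0.12 and 0.06, among them all 7 of the second-run 6m group. The limit of -0.2 was set after the slopes were seen, and counts of members and listed genes that passed with age are given with and without these libraries.

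At 28m, compared with the 6m libraries of the same run, Rgs5, Myh11 and Cspg4 were lower and Tagln and Myl9 were higher, while Acta2, Cnn1 and Lmod1 did not pass the test. Thus 5 of the 8 members had an adjusted p-value (padj) under 0.05, 2 of them higher and 3 lower. Of all 12994 genes tested, 47.3% passed, 24.3% higher and 22.9% lower, and the members' count is to be read against these shares. Their median log2 fold change (log2fc) was 0.16, beside 0.0091 for all genes. Only Rgs5 also reached an absolute log2fc of 1, which with padj under 0.05 made it a differentially expressed gene (DEG) like 5.7% of all genes.

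**Figure D1:**
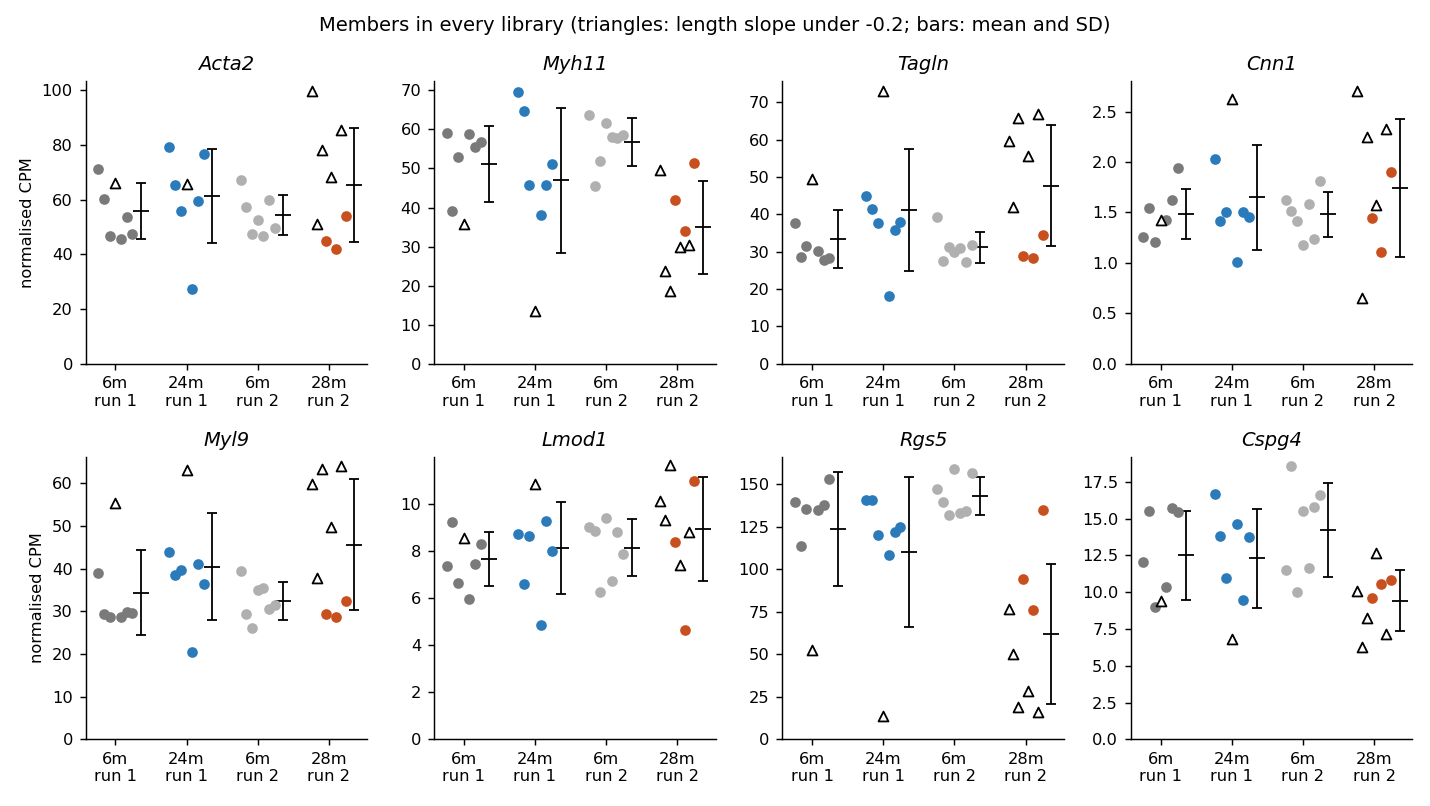
Normalized CPM of each member (y axis, linear, from 0) in every library of the 4 groups (x axis), with the mean and SD beside the points and open triangles for libraries with a length slope under -0.2. In 28m, the triangles of Rgs5 reach down to 16.2 CPM and those of Tagln and Myl9 lie above most 6m points.

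Acta2 encodes smooth muscle alpha-actin, the most abundant thin filament protein of vascular smooth muscle (chr19:34241090-34255590, minus strand, exonic length 2196 bases). Its CPM was 46.9 at the lowest, 52.4 at the median and 67.2 at the highest among the 6m mice, and 41.8, 61.2 and 99.8 among the 28m mice. The 28m mice spread to both sides of the 6m range, with 4 above it and 2 below it. The log2fc was 0.24 ± 0.17 (SE) and did not pass the test (padj = 0.254).

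Myh11 encodes the heavy chain of smooth muscle myosin, the motor that acts on this actin, and spans 43 merged exons at chr16:14194535-14291372 on the minus strand, with an exonic length of 7599 bases. The 6m mice had 45.5, 58.1 and 63.6 CPM (lowest, median, highest) and the 28m mice 18.5, 32.2 and 51.4. A total of 6 of the 8 mice at 28m were below every 6m mouse, and the groups overlapped only through replicates 1 (49.7 CPM) and 8 (51.4). Myh11 fell by 0.72 ± 0.18 (SE) on the log2 scale (padj = 0.00562).

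Tagln encodes transgelin, which binds and bundles actin filaments (chr9:45929619-45936058, minus strand, exonic length 1988 bases). The CPM values of 6m mice were 27.3, 31 and 39.4 and those of 28m mice 28.3, 48.7 and 66.8. The 5 highest mice at 28m exceeded all 6m mice, and the other 3 lay within the 6m range. These 5 were the libraries with a slope under -0.2. The log2fc was 0.58 ± 0.18 (SE, padj = 0.0169). Exons of the antisense gene Gm48529, which is not in the count table, cover 62.4% of the exonic bases of Tagln. Those of Pcsk7 on the opposite strand, which is in the count table, cover 108 bases. The strand setting of the counting is not given, so reads of Gm48529 may have been counted as Tagln. How reads from the bases shared with Pcsk7 were counted is not known.

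Myl9 encodes the regulatory light chain whose phosphorylation starts contraction (chr2:156775420-156781658, plus strand, exonic length 1162 bases). It was measured at 26.1, 31.4 and 39.4 CPM in 6m mice and at 28.7, 43.7 and 64.1 CPM in 28m mice. The ranges overlapped, with 4 mice at 28m above all 6m mice and none below. The log2fc of 0.46 ± 0.18 (SE) was near the threshold (padj = 0.0461), and it passed in only 5 of the 15 fits that left out 1 mouse.

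Cnn1 and Lmod1 were the contractile members with the smallest differences. Cnn1 encodes calponin, an inhibitor of the actomyosin ATPase (chr9:22099216-22109630, plus strand, exonic length 2736 bases), and had 1.18, 1.51 and 1.81 CPM at 6m and 0.652, 1.74 and 2.70 CPM at 28m. The 28m mice again lay on both sides of the 6m range, with 4 above and 2 below, and the log2fc was 0.21 ± 0.24 (SE, padj = 0.480). Lmod1 encodes leiomodin, which starts new actin filaments in smooth muscle (chr1:135324807-135368065, plus strand, exonic length 3948 bases), and had 6.26, 8.80 and 9.41 CPM at 6m and 4.63, 9.06 and 11.6 CPM at 28m. For Lmod1, 3 mice at 28m were above the 6m range and 1 was below it, and the log2fc was 0.10 ± 0.16 (SE, padj = 0.612).

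Rgs5 encodes a regulator of G-protein signaling that shortens the response to vasoconstrictor receptors and is among the most used pericyte genes (chr1:169655501-169695813, plus strand, exonic length 4546 bases). The 6m mice of the second run had 132, 139.8 and 159 CPM. The 28m mice had 76.7, 50.5, 19.1, 94.6, 28.4, 76.0, 16.2 and 134.8 CPM in replicates 1 to 8. Replicate 8 alone reached the 6m range, 7 of the 8 mice were below every 6m mouse, and the SD was 41.4 CPM at 28m against 11.3 at 6m. Rgs5 fell by 1.23 ± 0.36 (SE) on the log2 scale (padj = 0.0123), and its log2fc ranged from -1.5 to -1.08 with each mouse left out in turn.

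Cspg4 encodes a chondroitin sulfate proteoglycan of the pericyte surface that is also found on glial and progenitor cells (chr9:56865033-56899870, plus strand, exonic length 11931 bases, the longest of the 8 members). Its CPM was 9.99, 15.6 and 18.6 at 6m and 6.29, 9.83 and 12.6 at 28m. The ranges overlapped, although 4 mice at 28m were below all 6m mice and none was above. Cspg4 fell by 0.62 ± 0.16 (SE) on the log2 scale (padj = 0.00622).

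The log2fc at 28m went down with exonic length, with a Spearman correlation of -0.539 across 12874 genes, which are not independent replicates. Among the members that passed, the higher ones, Myl9 and Tagln, were the shortest of all 8, and Rgs5, Myh11 and Cspg4, the lower ones, were the longest, although Rgs5, the shortest of these 3, fell most. When the trend of each library with exonic length and GC content was removed, 37.2% of all genes passed (21.6% higher and 15.6% lower), and of the members only Myh11 (log2fc -0.42 ± 0.14 SE, padj = 0.0274) and Rgs5 (-1.25 ± 0.37, padj = 0.0151) did. Under this fit, Cspg4 (-0.02), Myl9 (-0.01), Acta2 (-0.07) and Tagln (0.23) had padj values between 0.200 and 0.939. Without the 5 libraries with a slope under -0.2, which left 3 mice at 28m, 20.3% of all genes passed (10.5% higher and 9.77% lower). The members that passed were again Myh11 (-0.42 ± 0.13, padj = 0.0380) and Rgs5 (-0.49 ± 0.14, padj = 0.0308). Cspg4 then had a log2fc of -0.46 ± 0.17 (padj = 0.0720), Tagln one of -0.03 and Myl9 one of -0.11. The decrease of Rgs5 was thus smaller in the 3 remaining mice than in all 8. Against the first-run libraries of the same 6m mice, 0 members passed by edgeR, beside 23% of all genes. The log2fc was then -1.01 ± 0.39 (SE) for Rgs5 (padj = 0.0669), -0.57 ± 0.20 for Myh11 (padj = 0.0515) and -0.43 ± 0.17 for Cspg4 (padj = 0.0727), and it was 0.50 ± 0.20 for Tagln (padj = 0.0745) and 0.39 ± 0.20 for Myl9 (padj = 0.153).

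**Figure D2:**
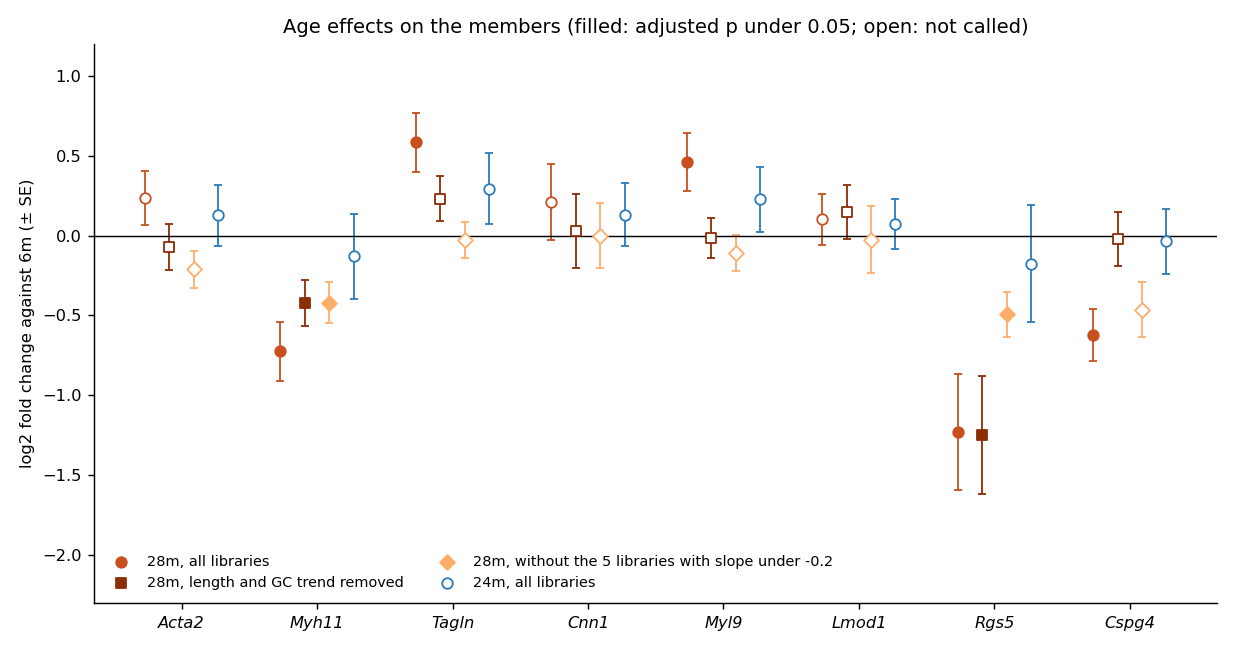
Log2 fold change against 6m with SE (y axis) for each member (x axis) at 28m in 3 fits and at 24m, filled where padj was under 0.05 and open where not. Rgs5 and Myh11 are filled in all 3 fits at 28m, and no symbol is filled at 24m.

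Within the 8 mice at 28m, members moved with the length slope of their library, a relation that was examined after the slopes had been seen. The slope is the trend of abundance on length, so short and long genes tend to move with it in opposite ways by its construction. The share of all genes with such a relation was not computed. The p-values below test r against 0 and do not tell whether the members differ from other genes of their length. Rgs5 had a Pearson r of 0.967 with the slope (exact permutation test, two-sided, p = 9.92e-05, adjusted over the 8 members 0.000794, Spearman rho 0.976 with p = 0.000397). Without the 2 mice farthest from the median slope its r was 0.960. Tagln (r = -0.884, exact p = 0.00918, adjusted 0.0320, rho = -0.833 with p = 0.0154) and Myl9 (r = -0.861, exact p = 0.0120, adjusted 0.0320, rho = -0.833 with p = 0.0154) went the opposite way, with r of -0.842 and -0.788 without the farthest mice. Myh11 had an r of 0.726 (exact p = 0.0435, adjusted 0.0870), and the other 4 members had adjusted p-values of 0.124 or more. With the trend on length and GC content removed, the relation was still seen for Rgs5 (r = 0.972, exact p = 4.96e-05, the smallest that 8 mice allow, adjusted 0.000397) and no longer passed for Tagln (r = -0.688) and Myl9 (r = -0.458). The ratio of Tagln to Myh11 within a library is free of scaling and was chosen after the values had been seen. It was 0.473 to 0.619 in second-run 6m libraries and 0.673 to 3.56 at 28m. At 28m it was above 1 only in the 5 libraries with a slope under -0.2. The ratio sets a short gene against a long one, so it follows the slope in part by construction and gives no separate support. What the slope stands for, and its part in the differences with age, was not tested, and RNA integrity of single libraries was not analysed here, so its relation to the slope was not tested either.

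**Figure D3:**
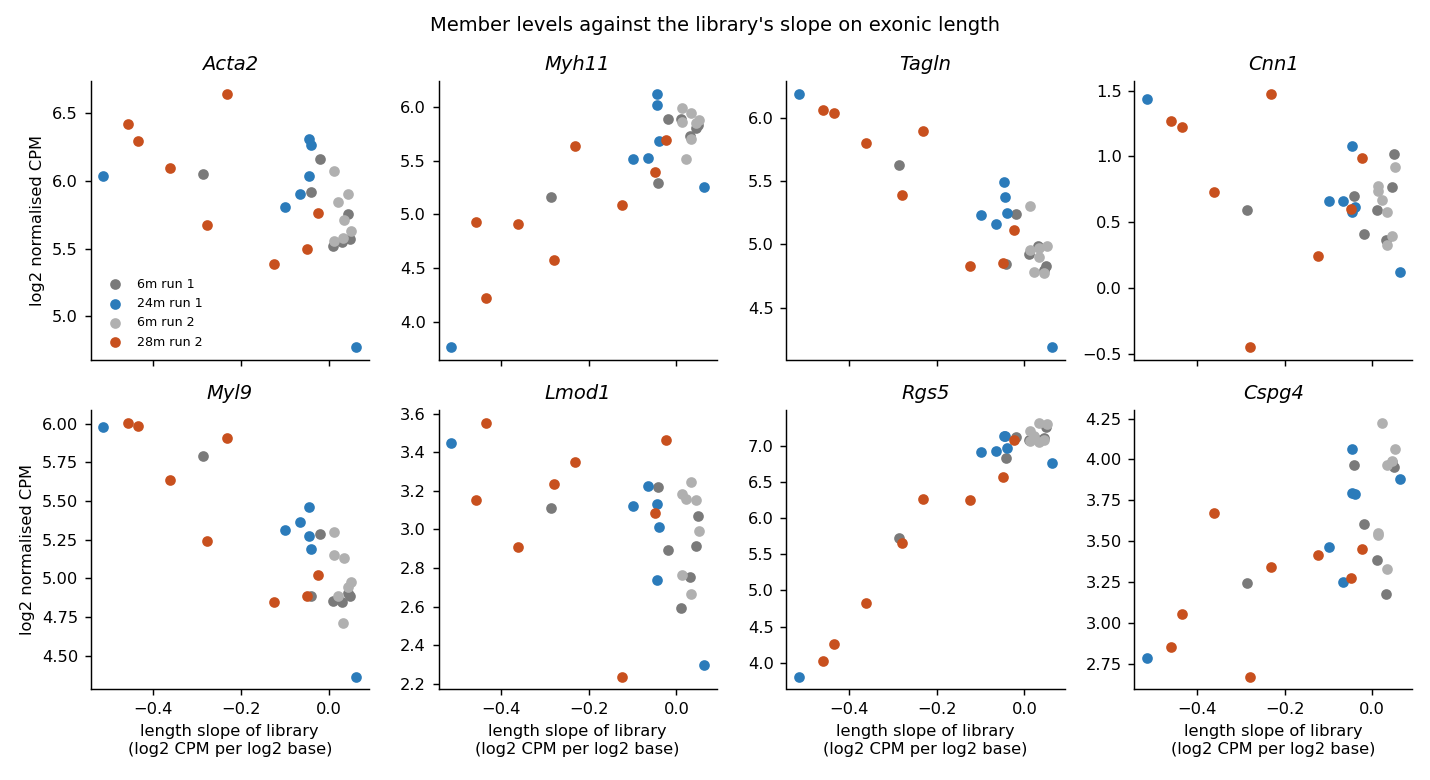
Log2 normalized CPM of each member (y axis) against the length slope of the library (x axis, log2 CPM per log2 base), with 1 point for each of the 29 libraries. Across all libraries, points of Rgs5 are lower where the slope is lower, from above 7 down to 3.81 in replicate 4 of 24m on the log2 scale, and those of Tagln and Myl9 are higher. Second-run 6m libraries span slopes of only 0.012 to 0.052 and show no such fall among themselves.

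The 7 mice at 6m show the members in libraries of the same animals. Comparing the second-run with the first-run libraries, 0 members and 0 of 12884 genes (0%) passed the edgeR test. At an unadjusted p under 0.05 there were 0 members and 357 genes (2.77%). The log2fc of the members was between -0.09 and 0.21. This test did not use the pairing by mouse, so differences between mice entered its error. With the mouse as a block 0 members passed as well, and the count over all genes in that fit is not given here. These counts thus do not show that a run changes nothing. The single mouse whose first-run library had a slope under -0.2 (replicate 4) stood apart from the other 6. In this mouse Rgs5 had 52.5 CPM in the first run and 159 in the second, a ratio of 0.330, and the ratio in the other 6 mice was between 0.814 and 1.03. Its Myh11 ratio of 0.580 and Cspg4 ratio of 0.605 were also below those of all other mice, whose lowest values were 0.856 and 0.835. Its ratios of 1.66 for Tagln, 1.58 for Myl9 and 1.26 for Acta2 were above those of all other mice, whose highest values were 1.05, 1.10 and 1.06. The 5 members with a changed level at 28m thus differed in the same directions between 2 libraries of this 6m mouse, and no test can be made on 1 mouse. How many of all genes did so was not computed, so the agreement cannot be read as particular to the members.

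**Figure D4:**
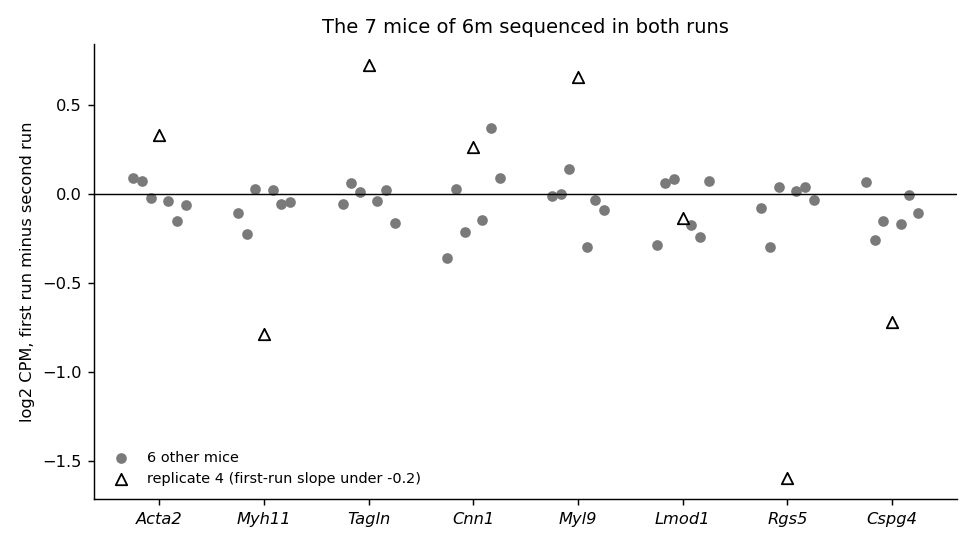
Difference of log2 CPM between the first-run and the second-run library (y axis) of each of the 7 mice at 6m for each member (x axis). The triangle is replicate 4, which lies below the other 6 mice for Rgs5, Myh11 and Cspg4 and above them for Tagln, Myl9 and Acta2.

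At 24m, compared with the 6m libraries of the first run, 0 of 8 members passed the edgeR test, beside 11 of 13103 genes or 0.084%. By DESeq2 or limma-voom 0 members passed either. At an unadjusted p under 0.05 by edgeR there were 0 members, beside 1546 genes or 11.8%. The count of 0 of 8 thus does not set the members apart from other genes. The log2fc was between -0.18 for Rgs5 and 0.29 for Tagln, with a median log2fc over all genes of 0.03. Rgs5 had 52.5, 135.5 and 153 CPM at 6m (lowest, median, highest) and 13.9, 121.9 and 141 CPM at 24m. Apart from replicate 4, with 13.9 CPM, all 24m mice had 108.7 CPM or more. The same mouse had the lowest Myh11 (13.5 CPM) and Cspg4 (6.82 CPM) and the highest Tagln (73.0 CPM) and Myl9 (63.0 CPM) of the 24m group, and its library had the lowest slope of all. Its ratio of Tagln to Myh11 was 5.42, and the other 24m mice had 0.475 to 0.822. Another mouse, replicate 5, had the lowest Acta2 (27.2 CPM), Tagln (18.1 CPM), Myl9 (20.5 CPM), Cnn1 (1.01 CPM) and Lmod1 (4.83 CPM) of its group, with 108.7 CPM of Rgs5 and a slope of 0.06. Without the libraries of slope under -0.2 in either group, the log2fc at 24m was -0.11 ± 0.08 (SE) for Rgs5, -0.04 ± 0.14 for Myh11 and 0.24 ± 0.15 for Myl9, and 0 members passed, beside 0.921% of all genes.

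The age effects at 28m and 24m were set against each other in a model of all 29 libraries. They share the 7 mice at 6m, each with a library in either run. No member passed this edgeR test, as none of 13455 genes did (0%), while 1611 genes and 1 member, Cspg4, had an unadjusted p under 0.05. The difference in log2fc, 28m effect minus 24m effect, was -1.04 ± 0.54 (SE) for Rgs5 (padj = 0.431), -0.57 ± 0.26 for Cspg4 (padj = 0.409) and -0.58 ± 0.33 for Myh11 (padj = 0.462). By limma-voom 0 members passed, with or without the mouse as a block. Without the libraries of slope under -0.2, 0 members and 0 of 13736 genes passed, and the difference was -0.39 ± 0.17 (SE) for Rgs5. A different response at the 2 ages was thus not shown for any member.

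Further genes of mural cells were taken from lists by role, and their counts at 28m are to be read against the 24.3% of all genes that were higher and the 22.9% that were lower. In the fit without the trend on length and GC content these shares were 21.6% and 15.6%, and without the libraries of low slope they were 10.5% and 9.77%. No list was tested against them. The lists share genes, so their counts are not separate evidence. Mylk, Ppp1r14a, Kcnmb1, Gucy1a3, Gucy1b3 and Pde5a are among both the further smooth muscle genes and the contraction and relaxation machinery. Tek is in the lists of recruitment and of endothelial markers, and Ednra in those of recruitment and of vasoactive receptors. Actg2 (smooth muscle), Rgs4 (pericytes) and Acta1 (muscle fibers) are again among the paralogs. Of 16 further smooth muscle genes, 2 were higher and 4 lower (median log2fc -0.12). By the lowest padj these were, among the higher, Sncg (5.61 ± 0.836 CPM at 6m and 10.2 ± 3.28 at 28m, SD, log2fc 0.84 ± 0.19 SE), which encodes gamma-synuclein, and Pln (log2fc 0.65 ± 0.15), an inhibitor of the calcium pump of the sarcoplasmic reticulum. The lower were led by Itga8 (2.55 ± 0.227 and 1.67 ± 0.341 CPM, log2fc -0.63 ± 0.14) and Npnt (9.80 ± 4.62 and 3.58 ± 1.79 CPM, log2fc -1.48 ± 0.36), an integrin chain and nephronectin, the matrix protein that it binds. Without the trend on length and GC content 1 was higher and 2 lower, and without the libraries of low slope 0 were higher and 2 lower.

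Of 16 further pericyte and mural genes, 2 were higher and 6 lower at 28m (median log2fc -0.17). Heyl, a repressor that Notch signaling induces, fell from 11.4 ± 1.47 to 6.34 ± 1.5 CPM (SD, log2fc -0.87 ± 0.15 SE, padj = 0.000711), and Steap4, a metalloreductase, fell from 43.8 ± 4.46 to 31.6 ± 3.47 CPM (log2fc -0.50 ± 0.09, padj = 0.000791). The higher genes were Colec11 (log2fc 0.84 ± 0.19) and Higd1b (0.74 ± 0.26). Notch3, the Notch receptor of mural cells, and Pdgfrb, the receptor for PDGF-B, are named after their values were seen, with log2fc of -1.03 ± 0.21 and -0.49 ± 0.10. In this list 5 genes were lower and 0 higher without the trend, where Steap4 had a log2fc of -0.67 and Pdgfrb one of -0.29, and 6 were lower and 0 higher without the libraries of low slope.

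Of 11 tested transcription factors and coactivators around serum response factor, 7 were lower and 0 higher (median log2fc -0.47). The lowest padj values were those of Tead1, a TEA-domain factor (373 ± 32.3 and 203.6 ± 49.2 CPM, SD, log2fc -0.90 ± 0.14 SE), and of Mkl2, a coactivator of serum response factor related to myocardin (54.2 ± 2.57 and 33.4 ± 8.00 CPM, log2fc -0.73 ± 0.13). Srf itself, named after its values were seen, fell from 131 ± 13.2 to 95.4 ± 13.2 CPM (log2fc -0.49 ± 0.10, padj = 0.00155). Muscle fibers express these factors too, and Myocd, the gene of myocardin, did not reach the filter on low counts. The counts were 2 higher and 5 lower without the trend, where 1 of the 5, Mkl1, had no exonic length, so that no trend was removed from it (log2fc -1.05 in both fits), and 1 higher and 5 lower without the libraries of low slope.

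Of 16 ligands and receptors of mural cell recruitment, which again include Notch3 and Pdgfrb, 7 were lower and 0 higher (median log2fc -0.22). Tek, the angiopoietin receptor of endothelial cells, fell from 33.1 ± 2.58 to 19.3 ± 2.22 CPM (SD, log2fc -0.80 ± 0.08 SE, padj = 5.55e-05) and Jag1, a Notch ligand, from 15.3 ± 0.904 to 11.2 ± 1.04 CPM (log2fc -0.48 ± 0.08, padj = 0.000541). Pdgfb, the ligand of Pdgfrb, did not pass (log2fc -0.18 ± 0.08). Both other fits gave 5 lower and 0 higher.

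Of 16 genes of the contraction and relaxation machinery, 5 were lower and 0 higher (median log2fc -0.12), led by Kcnma1, the pore of a calcium-activated potassium channel (log2fc -0.77 ± 0.13 SE), and Cacna1c, the pore of the L-type calcium channel (-1.29 ± 0.27). Without the trend 3 were lower and 3 higher, and without the libraries of low slope 2 were lower and 0 higher. Of 11 tested vasoactive receptors, 2 were lower and 0 higher (median log2fc -0.29), namely Npr1, the receptor of atrial natriuretic peptide (log2fc -0.54 ± 0.09), and Adra1a, an alpha-adrenergic receptor (-1.33 ± 0.25). Without the trend 4 receptors were lower, and without the libraries of low slope 2 of 12 were, with 0 higher in either fit. The median exonic length was 10887 bases in the former list and 3334 in the latter.

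Paralogs of the members are expressed by fibers and other cells. Of 18 tested, 5 were higher and 2 lower (median log2fc 0.25), but 2 were higher and 2 lower without the trend (median 0.03) and 3 higher and 1 lower without the libraries of low slope (median 0.07). Myl12a, a regulatory light chain of nonmuscle myosin, rose from 156 ± 15.2 to 415 ± 172 CPM (SD, log2fc 1.38 ± 0.20 SE, padj = 0.000342), and Lmod2, the leiomodin of striated muscle, had a log2fc of 0.82 ± 0.22. Myh10 (log2fc -1.14 ± 0.24) and Myh9 (-0.57 ± 0.18), which encode heavy chains of nonmuscle myosin, were the 2 lower genes. None of the windows of 75 bases in the longest transcript of a member, the read length used, was identical to a stretch of a transcript of another gene. Transcripts were compared in the sense direction only, so overlaps on opposite strands, as for Tagln, are not covered. At 24m, 0 genes of all these lists passed, with or without the trend or the libraries of low slope.

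**Figure D5:**
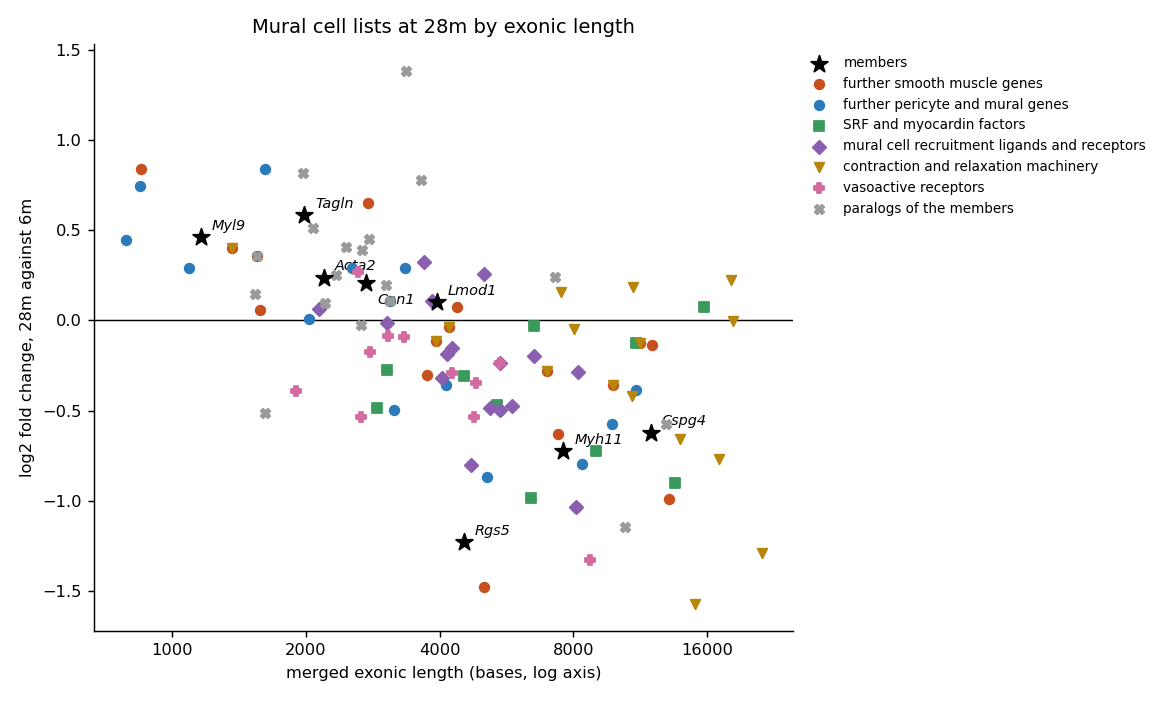
Log2 fold change of genes at 28m against 6m (y axis) by merged exonic length (x axis, log scale) for the members (stars) and the 7 further lists, with genes that have a length. Myl9 and Tagln lie high at the short end, Rgs5 lies below most genes of its length, and Myh11 and Cspg4 lie among the lower genes at the long end.

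Markers of other cells moved at 28m as well. Of 10 endothelial markers, 2 were higher and 6 lower, and their summed level was 499.7 to 562 CPM in second-run 6m libraries and 340.1 to 471 CPM at 28m, without overlap. Of all 12994 genes taken singly, 6.18% had every 28m library below every 6m library and 6.21% had every one above. Each non-overlap given here is to be read beside these shares, and none was computed for sums of genes. Of 10 fibroblast markers, 5 were lower (689 to 3704 CPM at 6m and 418 to 1612 at 28m), and of 6 adipocyte markers, 2 were higher (161 to 193 CPM and 149 to 607). Of 8 Schwann cell markers, 1 was higher (58.5 to 79.8 CPM and 46.3 to 81.8), and of 8 muscle fiber markers, 2 were higher and 1 was lower (145953 to 159142 CPM and 134733 to 158299). Satellite cell markers gave 1 lower gene, Pax7, and 1 higher gene, Des, which muscle fibers express too. Their summed level was 3521 to 3787 CPM at 6m and 4410 to 7173 at 28m, without overlap, and most of it was Des, with means of 3621 and 5759 CPM. Tendon markers gave 1 higher gene (211 to 374 CPM at 6m and 119.8 to 402 at 28m), and immune cell (91.2 to 283 and 119.6 to 657) and erythrocyte markers (5.20 to 26.3 and 3.84 to 24.9) none. With the trend removed, which left 21.6% of all genes higher and 15.6% lower, endothelial markers gave 1 higher and 4 lower genes, fibroblast markers 2 lower, adipocyte markers 1 higher, Schwann cell markers 2 higher and muscle fiber markers 1 lower, and the other lists kept their counts. Several lists went another way without the libraries of low slope, where 10.5% of all genes were higher and 9.77% lower. Of the adipocyte markers 0 were then higher and 3 lower (median log2fc -1.14, beside 0.93 in all libraries), of the 6 tendon markers 1 was higher and 4 lower (median -1.33, beside -0.11), and of the 7 immune cell markers 1 was higher (median -0.19, beside 0.29). Endothelial markers then gave 4 lower and 0 higher genes, fibroblast markers again 5 lower, satellite cell markers again 1 in each direction, and Schwann cell, muscle fiber and erythrocyte markers none. At 24m, 0 markers of these lists passed, and without the libraries of low slope 1 Schwann cell marker was higher. Every marker of these lists had counts in at least 1 library of each group, except 2 erythrocyte markers listed at 0. The part of other cells in the levels of the 8 members was not tested.

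Covariation of the members was measured among mice of the same age. Deviations of log2 CPM from the mean of the age group were compared over 22 mice for the 28 pairs of members, with a two-sided permutation test within age groups. By Pearson's r 14 pairs passed after adjustment, 12 with a positive and 2 with a negative correlation. Pairs of other genes were not tested, so the share of all pairs that would pass is not known. These counts thus cannot be read as particular to the members. Of the 10 pairs among Acta2, Tagln, Cnn1, Myl9 and Lmod1, 9 passed by Pearson's r (0.622 to 0.970) and 5 by Spearman's rho, and Cnn1 with Lmod1 (r = 0.533, adjusted permutation p = 0.0727) did not pass by r, while 0 of the 5 pairs of Myh11 with these members passed by either (r from -0.383 to 0.0574). Within the 7 mice at 6m, the r of Cnn1 was negative with Acta2 (-0.271), Tagln (-0.415) and Myl9 (-0.316), whereas all 10 pairs were positive within 24m and within 28m. The closest pair was Tagln and Myl9 (r = 0.970, permutation p = 1e-05, adjusted 0.00028, rho = 0.925 with p = 1e-05, the smallest p that the permutations can give), and r was 0.957 without the 2 farthest mice. It held within each age, with r of 0.864 at 6m, 0.982 at 24m and 0.990 at 28m. Acta2 went with Myl9 (r = 0.842, permutation p = 0.00018, adjusted 0.00252, rho = 0.823) and with Tagln (r = 0.828, permutation p = 0.00027, adjusted 0.00252, rho = 0.825). Myh11 did not follow Acta2 (r = 0.06, permutation p = 0.813, adjusted 0.878) but went with Rgs5 (r = 0.857, permutation p = 0.00059, adjusted 0.00413, rho = 0.813), also within 6m (0.625), 24m (0.960) and 28m (0.763). The negative pairs were Rgs5 with Tagln (r = -0.687, permutation p = 0.0106, adjusted 0.0270, rho = -0.514 with adjusted p = 0.102) and Rgs5 with Myl9 (r = -0.664, permutation p = 0.0116, adjusted 0.0272, rho = -0.479 with adjusted p = 0.129). Without replicate 4 of the 24m group, 7 pairs passed and 0 were negative, with r of -0.557 and -0.581 for these 2 pairs (adjusted permutation p = 0.112 and 0.105). Leaving out this mouse turned their r within 24m from -0.616 to 0.849 and from -0.581 to 0.746.

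These relations shifted when the length slope was taken into account. With the trend removed, 10 pairs passed and 0 were negative, the pair of Acta2 and Myh11 rose to r = 0.646 (adjusted permutation p = 0.0431), and Tagln with Rgs5 had an r of -0.41 that did not pass (adjusted permutation p = 0.237). Without the libraries of low slope, which left 16 mice, 11 pairs passed and 0 were negative, and Tagln with Rgs5 was positive (r = 0.520, adjusted permutation p = 0.0236). Myh11 then had a positive r with each of the 5 other contractile members (0.439 to 0.712) and passed with 2 of them, Tagln (adjusted permutation p = 0.0236) and Myl9 (r = 0.644, adjusted permutation p = 0.0242), for which its r was negative over all libraries. Rgs5 with Myh11 passed under both (r = 0.733 and 0.817, adjusted permutation p = 0.0253 and 0.00056). Over all libraries, Cspg4 passed by Pearson's r, though not by Spearman's rho, with Myh11 (r = 0.591, adjusted permutation p = 0.0278) and Rgs5 (r = 0.544, adjusted permutation p = 0.0416). With the trend removed or without the libraries of low slope, it passed with no other member.

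Over the same 22 mice and 13447 other genes, the genes with deviations most like the mean of the 6 contractile members were Gm11517 (r = 0.889), Bcam (0.882), Sncg (0.822), Fam132a (0.807), Bckdk (0.799) and Aes (0.795). With the trend removed they were Prx (r = 0.858), Sncg (0.838), Bcam (0.830), Mbp (0.810), Mag (0.810) and Rasgrf2 (0.809), of which Prx, Mbp and Mag encode proteins of myelin or of the cells that form it. Genes most like Rgs5 and Cspg4 were Asap2 (r = 0.951), Ccdc157 (0.944), Ltbp4 (0.939), Sin3a (0.933), Daam2 (0.932) and Stard13 (0.928), all with exonic lengths between 5385 and 9769 bases. With the trend removed they were Serpinb6b (r = 0.883), Sparcl1 (0.882), Cpne3 (0.861), Ltbp4 (0.829), Stk10 (0.826) and Gm16897 (0.814), although Rgs5 and Cspg4 themselves then had an r of -0.312 with each other, so that a gene like their mean need not be like both. All genes were measured in the same libraries, whose slopes differ, so these correlations are descriptions, and Sncg and Bcam on the one side and Ltbp4 on the other were named by both fits.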

How the data were processed

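The authors extracted total RNA of the TA, enriched poly-A RNA, sequenced single-end reads of 75 bases in 2 runs, aligned them to mm10 with STAR 2.5.4b and counted the reads of each gene with the same program, and the whole-number counts were deposited without normalization. The submitters' processing notes also name bcl2fastq 2.20, R 3.5.1 and DESeq2 1.22.2. The strand setting of the counting is not given in the sources used here. The table holds 22537 gene symbols in 29 libraries, all mapped to samples by name, with no entries for unassigned reads.

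Each old group was set against the 6m libraries of its own run with edgeR 4.0.16 (R 4.3.3), TMM scaling, filterByExpr and the quasi-likelihood F test, adjusted by Benjamini-Hochberg over all genes tested. A gene passed at padj under 0.05 and was a DEG at an absolute log2fc of at least 1 besides. SEs were derived from the test statistic, and log2 CPM used a prior count of 2. The contrast of both age effects used all libraries. Which 6m libraries come from the same mouse was read from the sample titles. The deviations of both libraries of a mouse from their group means correlated across 13455 genes with r between 0.218 and 0.814 over 7 mice, and each mouse was most like its own other library.

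Exonic lengths, positions and overlaps came from GENCODE M21 (GRCm38), in which 20202 symbols matched directly, 1887 through a synonym and 448 did not, and no trend was removed from genes without a length. Trends on length and GC content were fitted in each library with splines of 5 degrees of freedom and entered as offsets. Alternatives were DESeq2 1.42.0, limma-voom (limma 3.58.1), other scalings and filters, thinned counts, the other run's 6m libraries and leaving out each mouse. Fits without the libraries of slope under -0.2 were added after the data had been seen. The fits were checked on simulated counts. Correlations used 100000 permutations or exact permutation tests (SciPy 1.17.1).

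The members and the gene lists were chosen with earlier results of these data known. The genes named from a list are the 2 with the lowest padj among those higher and among those lower at 28m, or those that passed where fewer did, besides genes marked as named after their values were seen. The labels do not say that libraries of a group were prepared separately beyond coming from different mice, and counting error is the lower limit of all errors given.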

Additional observations from a re-analysis of the deposited data

Results flagged for a closer look

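The extreme library of each member was compared with the rest of its group by the gap to the nearest value over the range of the group, in 32 groups of values, and 4 of them exceeded the critical value of Dixon's test, where chance exceeds it in about 5 percent of groups. Rgs5 was set apart in the 24m group by the 13.9 CPM of replicate 4, with 108.7 CPM in the nearest mouse, and in the first-run 6m group by the 52.5 CPM of replicate 4, with 113.8 CPM in the nearest. Myl9 was set apart in the same first-run 6m library with 55.3 CPM, where the nearest mouse had 39.0. These 2 libraries had the lowest length slopes of their groups. Tagln was set apart in replicate 1 of the second-run 6m group with 39.4 CPM against 31.7 in the nearest mouse, and that library had a slope of 0.01. No difference between the age effects at 28m and 24m passed the test for any member, and 0 of 13455 genes did.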

How the results depend on the processing

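At 28m, 5 members passed, and 4 to 5 did with each mouse left out. Against the 6m libraries of the other run 0 passed (beside 23% of all genes, with log2fc of -1.01 for Rgs5 and -0.57 for Myh11), with the length and GC trend removed 2, and without the libraries of slope under -0.2 again 2. With the trend removed, Acta2 (-0.070) and Myl9 (-0.014) changed sign in log2fc, and without the low-slope libraries Acta2 (-0.21), Tagln (-0.028), Cnn1 (-4.2e-05), Myl9 (-0.11) and Lmod1 (-0.024) did. At 24m, 0 members passed in any fit. Signs changed for Lmod1 against the other run's 6m libraries (-0.026), for Cspg4 with the trend removed (0.045), for Cnn1 (-0.025) and Cspg4 (0.014) without both low-slope libraries, and without replicate 4 of the 24m group for Myh11 (0.034), Cnn1 (-0.010), Lmod1 (-0.0025), Rgs5 (0.019) and Cspg4 (0.072). With each mouse left out, the log2fc at 24m reached from -0.25 to 0.034 for Myh11, -0.010 to 0.23 for Cnn1, -0.0025 to 0.18 for Lmod1, -0.31 to 0.019 for Rgs5 and -0.12 to 0.072 for Cspg4. The difference between the age effects changed sign with the trend removed for Acta2 (-0.066) and Myl9 (-0.038), and without the low-slope libraries for Acta2 (-0.38), Tagln (-0.26), Myl9 (-0.36) and Lmod1 (-0.057). Between the runs of the 6m mice, signs changed with the trend removed for Acta2 (0.038), Cnn1 (0.030) and Myl9 (0.016), and with each mouse left out the log2fc reached from -0.062 to 0.015 for Acta2, -0.14 to 0.032 for Tagln, -0.071 to 0.063 for Cnn1 and -0.14 to 0.058 for Myl9. Of the 28 pairs of members, 14 passed, and 7 did without the mouse farthest from its group. The cause of these changes was not tested.

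With the mouse as a replicate block, 0 members passed between the runs (Cnn1 changed sign, to 0.00014) or between the age effects, as without it. The block could not be used within an age comparison, which holds each mouse once. Besides the left-out mice, Rgs5 and Myh11 were lower at 28m under all 11 other settings and passed under 10 of them. Cnn1, with as few as 14 counts, is the member most limited by depth.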
